A study of Homo sapiens with 4 samples.

Results

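Input-only Fra-1 peaks are Fra-1 peaks that were called against input DNA and found no support in 2 further peak lists of the same cells. They were selected on their calls: peaks of the Fra-1 list over input, on chromosomes 1 to 22 and X, that overlap by not even 1 bp any Fra-1 peak called over IgG or any DDX5 peak called over input. Of 30405 Fra-1 peaks over input on these chromosomes, 9854 (32.4%, 95% exact binomial interval 31.9% to 32.9%) were input-only. In that list 50.6% of peaks overlapped a Fra-1 peak over IgG and 21.7% a DDX5 peak over input. Chromatin immunoprecipitation followed by sequencing was run on BT549, an established breast cancer cell line without oestrogen receptor alpha, grown in RPMI medium with serum and left untreated. The study set apart binding events of each protein alone from those of both. There was 1 library each of Fra-1 ChIP (antibody R-20), DDX5 ChIP (antibody ab21696), ChIP with normal rabbit IgG and input DNA (sonicated chromatin, no antibody). No replicates exist, so no difference between libraries was tested, and intervals cover counting error only.

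Fra-1, the product of FOSL1, is a Fos-family protein that binds DNA as a dimer with a Jun protein, forming the transcription factor AP-1. In aggressive breast cancer cells Fra-1 is abundant and is known for driving invasion genes, largely from enhancers. DDX5 is an RNA helicase of the DEAD-box family, known also as a coactivator of several transcription factors. Input DNA shows how many copies of a stretch the cells carry and how well it is sheared, sequenced and placed. An IgG library records in addition what chromatin is pulled down without a specific antibody, so a peak can stand above one control and not above the other. Positions are in hg19, the build in the submitters' processing notes. Each peak is given by its position, since an hg19 gene annotation and sequence were not used here.

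The selection used the Fra-1 signal over both controls, and the peaks were chosen by it, so their strength is a description and supports nothing. The median input-only peak was 3.98-fold over input (interquartile range 3.45 to 4.72), with a pileup, the number of Fra-1 fragments over the summit, of 20 (17 to 24). Fra-1 peaks called over IgG and free of DDX5, 13952 in number, had a median fold of 8.49 and a median pileup of 48. The 5152 Fra-1 peaks that failed over IgG but did overlap a DDX5 peak were at 4.38-fold with a pileup of 24. Input-only peaks were thus the weakest class, close to the DDX5-overlapping peaks that also failed over IgG.

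Of the input-only peaks, 4825 (49.0%) reached 4-fold, where 75.1% of all Fra-1 peaks over input did. At 8-fold the number was 34 (0.345%), where 29.6% of all Fra-1 peaks did. Widths were near the shortest that the list holds, 200 bp. The median input-only peak spanned 243 bp, and 5336 of them (54.2%, 53.2% to 55.1%) were under 250 bp, against 26.2% of all Fra-1 peaks over input. IgG-called peaks spanned a median of 355 bp, with 11.9% under 250 bp, and the DDX5-overlapping peaks 357 bp, with 18.5%. A wider peak meets a rule of 1 bp overlap more readily, so these widths too are tied to the selection and only describe the classes. Ranked by −log10 q (the deposited significance of a peak over input), decile 1 of the whole list, the weakest, was 75.9% input-only, decile 5 was 37.5% and decile 8 was 0.427%, and decile 10 held 0 of 3041.

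**Figure D1:**
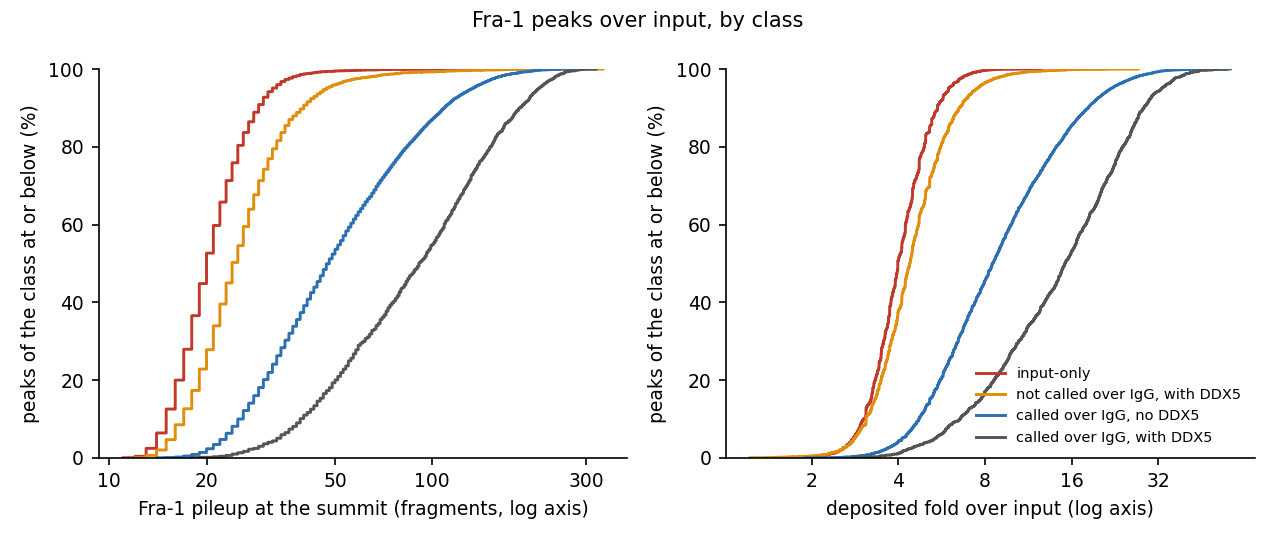
Cumulative share of Fra-1 peaks over input (vertical axis, %) at or below a given Fra-1 pileup (left, fragments, log axis) or deposited fold over input (right, log axis), with 1 line per class of peak. The input-only line lies farthest left, with medians of 20 fragments and 3.98-fold, just beside the peaks not called over IgG that overlap DDX5 (24 fragments and 4.38-fold).

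A few input-only peaks were strong. The strongest lay at chr11:93517178-93517561, where 68 Fra-1 fragments stood over an input level of 4.45, a fold of 12.7. It was isolated, 42.3 kb from the next Fra-1 peak over input, 351 kb from the nearest IgG-called one and 42.5 kb from a DDX5 peak. The next was at chrX:22417988-22418287, with 42 fragments and 10.7-fold, 9.92 kb from an IgG-called peak. After it came chr4:84029336-84029944 (44 fragments, 10.3-fold), which stood 0.054 kb from another Fra-1 peak over input. These 3, with chr13:45293944-45294307 (45 fragments, 10.3-fold) and chr1:92208549-92208871 (50 fragments, 8.45-fold), also had the highest −log10 q, from 29.3 to 51.8.

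The other 6 of the 10 highest folds ran from 8.93 to 9.95. At chr2:64977921-64978200 the pileup was 39 (9.95-fold). The peak at chr19:19516112-19516413, also with 39 fragments (9.90-fold), missed a DDX5 peak by 0.096 kb. At chr15:26327266-26327660 there were 37 fragments (9.45-fold), and the nearest DDX5 peak lay 643 kb away. The remaining peaks were chr2:38978286-38978674 (41 fragments, 9.37-fold), chr6:12592886-12593189 (43 fragments, 9.03-fold) and chr1:159886072-159886412 (38 fragments, 8.93-fold). These strong peaks thus lay both beside other Fra-1 sites and far from any.

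The 5 widest input-only peaks had folds and pileups above the class medians. The first, at chr2:198317758-198318816, spanned 1059 bp with 31 fragments (4.70-fold), and chr8:146126593-146127644 spanned 1052 bp with 45 (4.31-fold). The others were chr17:38256665-38257697 (1033 bp, 32 fragments, 6.86-fold), chr11:62599341-62600341 (1001 bp, 34 fragments, 5.45-fold) and chr17:74712243-74713221 (979 bp, 22 fragments, 4.72-fold).

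The files give no IgG level at an input-only peak. What can be computed is the IgG level at which its summit would fall short of the p-values in the IgG list. At 15356 of 15399 peaks called over both controls (99.7%) the summit pileup of the 2 lists was the same, within 0.1 fragments, once the IgG list was divided by 0.884, the factor that scales Fra-1 to the depth of the IgG library. The lowest −log10 p in the IgG list was 4.09. For each pileup, the Poisson formula that returns the deposited p-values then gives the IgG level above which a summit falls short of that p, called the threshold level here. At the lowest IgG level that the list holds, 2.67, the pileup of 9816 input-only peaks (99.6%) would have reached it, and that of 38 would not. The median threshold level of input-only peaks was 6.18 (interquartile range 5.08 to 8.52), against an input level of 3.49 at the same depth. IgG-called peaks without DDX5 had a median IgG level of 5.0, computed from the deposited fold. Their pileups were higher, and a threshold level is a limit, so 5.0 and 6.18 are not comparable.

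The threshold level follows from the pileup and is not a measured IgG level. The IgG level of an input-only peak lies above it only if the peak failed by its p-value. Neither list holds a peak under 200 bp, so a narrow peak could also have dropped out by its width, and how many did was not tested. Each input-only peak had been called over input, so a threshold level above its input level was largely set by the selection. This was so at 9472 input-only peaks (96.1%) and says nothing about their IgG level. The threshold level was a median of 1.68 times the input level. For the 2336 input-only peaks of at least 300 bp the median was 1.84 times. At the strongest peak, on chromosome 11, the threshold level was 35.9 beside an input level of 3.94, a ratio of 9.11.

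At equal pileup, peaks without DDX5 split between the 2 classes gradually. From 11 to 15 fragments 0.803% were called over IgG, from 20 to 24 fragments 23.5% (22.1% to 24.8%), from 25 to 29 fragments 48.5%, and from 30 to 39 fragments 77.9%. Of 8879 such peaks with at least 40 fragments, 98.5% were called over IgG, and 137 were input-only. Over whole classes the median input level was lower at input-only peaks (3.95) than at IgG-called or DDX5-overlapping peaks (4.84 each). Within each of these bins, though, it was higher at the input-only than at the IgG-called peaks. From 20 to 24 fragments the medians were 4.34 and 3.87, from 30 to 39 fragments 5.81 and 4.26, and from 40 upwards 12.6 and 4.84. The median input level thus rose over the bins in both classes, from 3.29 to 12.6 at input-only and from 3.02 to 4.84 at IgG-called peaks. Single input-only peaks departed from this, such as the strongest one on chromosome 11, with 68 fragments at an input level of 4.45.

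**Figure D2:**
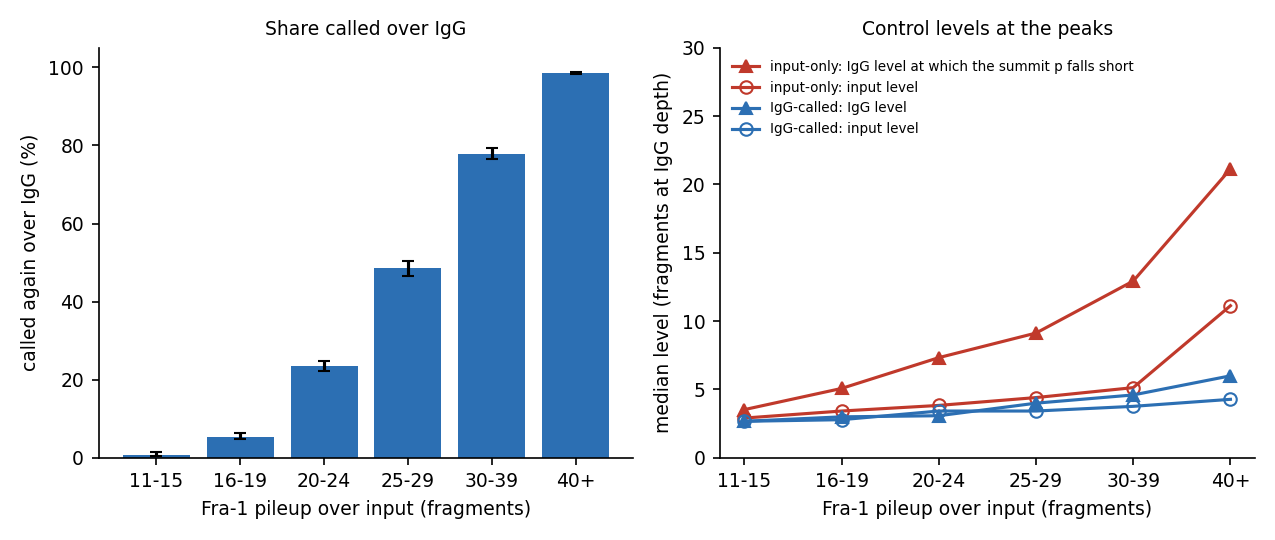
Left, share of Fra-1 peaks over input without DDX5 that were called again over IgG (vertical axis, %; bars with 95% exact binomial intervals), by Fra-1 pileup (horizontal axis, fragments). Right, median control levels in the same bins (fragments at the depth of the IgG library). The red triangles are the computed threshold levels and the blue triangles IgG levels computed from the deposited fold. The share rises from 0.803% to 98.5%, and the threshold level for input-only peaks runs from 3.53 to 21.1.

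Pileup alone does not mark a strong site where the input is high. The 5 highest pileups among input-only peaks belonged to some of the lowest folds. The first, at chrX:58568763-58569025, had 189 fragments over an input level of 129 (1.46-fold), and chrX:61690053-61690273 had 181 over 113 (1.59-fold). Another 2 were at chrX:58575875-58576077 (179 fragments, 1.51-fold) and chrX:61683363-61683569 (145 fragments, 1.79-fold), and the fifth was at chr18:109635-109954 (137 fragments, 1.85-fold). All 5 lay 0.388 to 1.75 kb from a DDX5 peak over input and at least 158 kb from any IgG-called Fra-1 peak.

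In all, 50 input-only peaks (0.507%, 0.377% to 0.668%) stood at an input level of 20 or more, where 0.332% of all Fra-1 peaks over input did. Their folds ran from 1.46 to 2.78 with a median of 2.06. Chromosome 8 held 31 of the 50. These included all peaks of 2 neighbouring groups, 15 at chr8:86726667-86787503 and 12 at chr8:86802320-86835242. The lowest input levels in these groups were 20.3 and 25.4. Peaks this close depend on each other, which the interval does not cover. The share at an input level of 20 or more was higher among DDX5-overlapping peaks not called over IgG, 48 of 5152 (0.932%, 0.688% to 1.23%). Of 13952 IgG-called peaks without DDX5, 2 (0.0143%) stood at such a level. Whether these stretches are amplified in BT549 or hold repeated sequence was not tested.

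**Figure D3:**
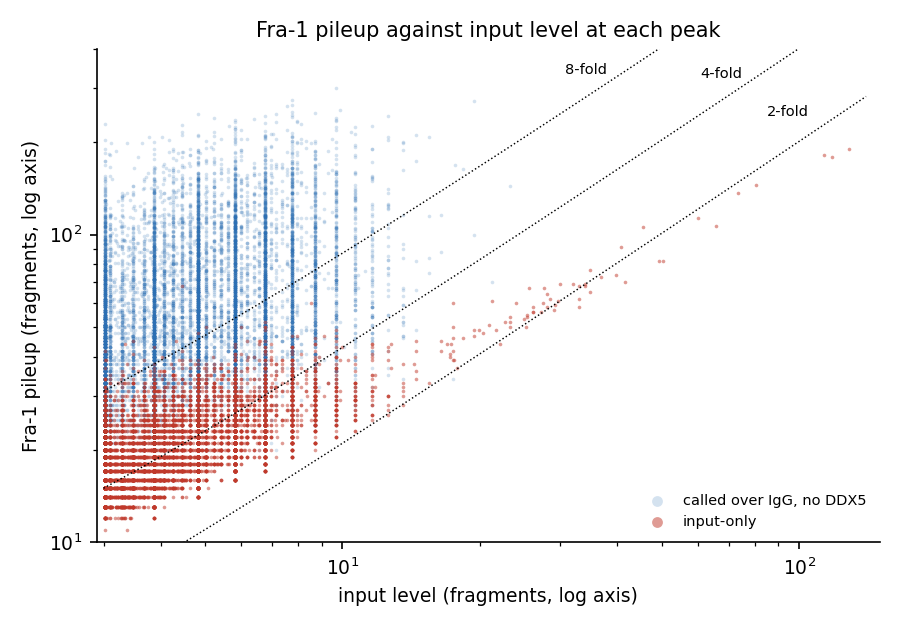
Fra-1 pileup (vertical axis, fragments, log axis) against input level (horizontal axis, fragments, log axis) at each input-only peak (red) and each IgG-called peak without DDX5 (blue), with dotted lines of equal fold. Among input-only peaks, 95% lie at or below an input level of 7.74 and 95% at or below a pileup of 32, and a thin tail of 50 runs along the 2-fold line from an input level of 20 up to 129.

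Input-only peaks lay nearer to DDX5 peaks than IgG-called Fra-1 peaks did, although neither class overlapped one. A DDX5 peak over input lay within 10 kb of 2610 input-only peaks (26.5%, 25.6% to 27.4%) and of 1671 IgG-called peaks (12%, 11.4% to 12.53%). Within 1 kb the shares were 13.2% and 3.06%, and the median distances were 55.3 and 127 kb. Of all Fra-1 peaks over input, those that overlap DDX5 included, 35.8% had a DDX5 peak within 10 kb and 27.4% within 1 kb. The gap was there at equal pileup too. From 20 to 24 fragments, 27.3% (25.8% to 29%) of input-only and 9.59% (7.79% to 11.7%) of IgG-called peaks had a DDX5 peak within 10 kb, and from 30 to 39 fragments 33.0% and 10.6%. The DDX5 peaks and both classes of Fra-1 peaks were called against the same input library, the IgG-called ones over IgG too. The part of that library in this nearness was not tested. No input-only peak overlapped any of the DDX5 peaks called over IgG. Such overlaps were rare throughout, at 43 of all 30405 Fra-1 peaks over input (0.141%) and 1 of 13952 IgG-called peaks. By the limit of 3 counts, 0 of 9854 allows a share of up to 0.0304%, and the exact interval ends at 0.0374%. The choice of peaks largely fixed this 0, since nearly all of those DDX5 peaks are also in the DDX5 list over input.

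Some input-only peaks also stood beside supported Fra-1 sites, in part the same peaks as those near DDX5, with 952 within 10 kb of both. An IgG-called Fra-1 peak lay within 10 kb of 2867 input-only peaks (29.1%), against 18.4% (17.4% to 19.5%) of the DDX5-overlapping peaks not called over IgG. Of all Fra-1 peaks over input, those that overlap an IgG-called peak included, the share was 63.2%. Within 1 kb the shares were 10.9% of input-only, 4.39% of DDX5-overlapping and 54.9% of all Fra-1 peaks. At the 1078 input-only peaks this close, the summits lay a median of 652 bp apart. The input-only peak had a median pileup of 21 and its IgG-called neighbour one of 57.0, a difference that the selection largely sets. Most of the input-only peaks, 5329 (54.1%), stood more than 10 kb from both kinds of peak.

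Median folds lay close together in all places, and the share that reached 4-fold differed more. Input-only peaks over 10 kb from both an IgG-called Fra-1 peak and a DDX5 peak had a median fold of 4.0, and those within 1 kb of an IgG-called peak only one of 4.11. Those within 1 kb of a DDX5 peak only, 1100 in number, were at 3.77-fold, with a median input level of 4.51 against 3.87 for the distant ones. The share at 4-fold was 38.4% within 1 kb of DDX5 only, 54.6% within 1 kb of an IgG-called peak only and 49.8% in the distant ones.

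**Figure D4:**
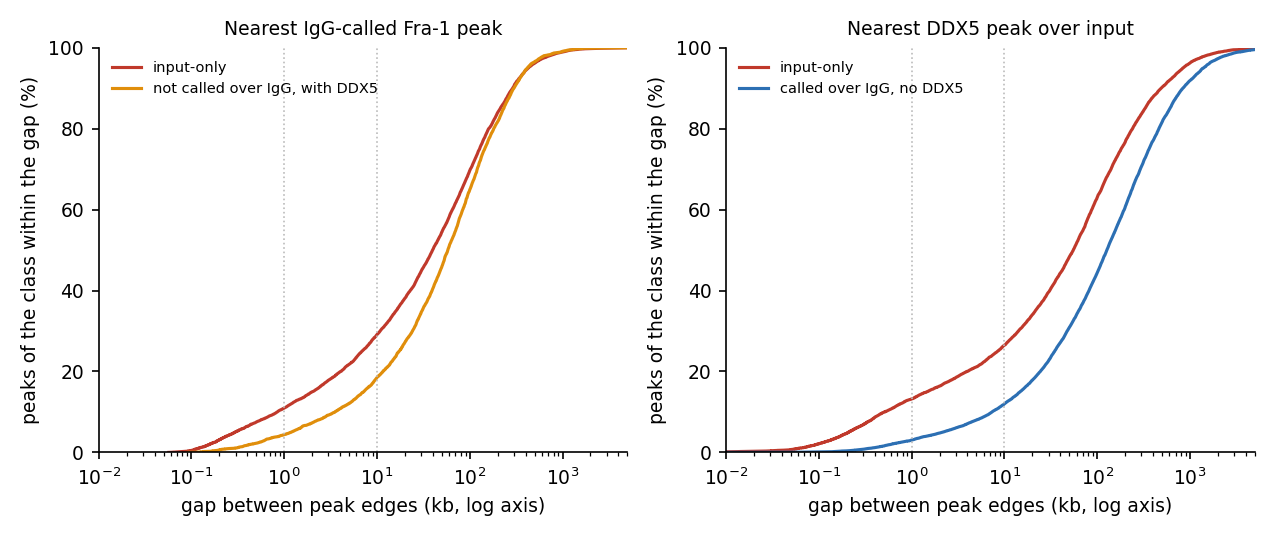
Cumulative share of peaks (vertical axis, %) with a partner within a given gap between peak edges (horizontal axis, kb, log axis), for the nearest Fra-1 peak over IgG (left) and the nearest DDX5 peak over input (right); dotted lines mark 1 and 10 kb. At 10 kb the input-only line stands at 29.1% on the left, above the 18.4% of DDX5-overlapping peaks, and at 26.5% on the right, above the 12% of IgG-called peaks.

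The company that input-only peaks kept was mixed. Of them, 4380 (44.4%, 43.5% to 45.4%) had no other Fra-1 peak over input within 0.0125 Mb, against 38.5% of all Fra-1 peaks over input, 36.8% of IgG-called and 35.4% of DDX5-overlapping peaks. Of the 5474 with such a neighbour, the nearest was IgG-called without DDX5 in 37.6%, input-only in 35.7% and DDX5-overlapping without an IgG call in 20.6%. These classes make up 45.9%, 32.4% and 16.9% of the list. IgG-called peaks had one of their own kind as nearest neighbour in 66.8% of cases and DDX5-overlapping peaks in 54.7%, so of these 3 classes the input-only peaks rose least above their share of the list.

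Joined at gaps of up to 0.0125 Mb, the input-only peaks formed 8230 groups, of which 7002 were single peaks and 25 held 5 or more. Those 25 held 161 peaks (1.63%). The fullest were neighbours on chromosome 8, with 15 peaks at chr8:86726667-86787503 and 12 at chr8:86802320-86835242. Their median folds were 2.14 and 2.03 and their median input levels 27.2 and 29.1, and no Fra-1 peak over IgG lay in either. The third group, with 10 peaks over 50.5 kb at chr7:116152145-116202670, had an ordinary input level (median 4.26) and folds of 2.44 to 5.31. It shared its stretch with 4 other Fra-1 peaks over input, 2 Fra-1 peaks over IgG and 5 DDX5 peaks.

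Next came 8 peaks at chr20:60939583-60976796 (median 4.29-fold) and 8 at chrX:153572039-153628382 (3.88-fold). The stretch on X held 29 DDX5 peaks, between which the input-only peaks lay. At chr19:1147621-1184751, 7 input-only peaks (4.55-fold) lay among 17 DDX5 peaks and 6 Fra-1 peaks over IgG. Each of these groups shared its stretch with DDX5 peaks over input, 3 and 1 of them in the pair on chromosome 8. Apart from that pair, each also held Fra-1 peaks over IgG. Smaller groups were mixed. Of those with 6 input-only peaks, chr11:65252942-65264537 and chr12:63108236-63127107 held 0 DDX5 peaks, and chr20:30147130-30158554 held 4. How often other stretches of such length hold a DDX5 peak was not tested.

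On chromosomes 19 and 17, both gene-rich, the share of input-only peaks lay above that of IgG-called and below that of DDX5-overlapping peaks. Chromosome 19, the richest in protein-coding genes, held 3.59% of all Fra-1 peaks over input. It held 420 input-only peaks (4.26%, 3.87% to 4.68%), 1.45% (1.26% to 1.67%) of IgG-called and 7.76% (7.05% to 8.53%) of DDX5-overlapping peaks. On chromosome 17, with 4.48% of all Fra-1 peaks, the shares were 4.97%, 2.96% and 7.36%. On gene-poor chromosome 4, with 4.13% of all Fra-1 peaks, the order turned, with 2.98% (2.66% to 3.34%), 5.84% and 2.0%. On chromosome 18, with 1.75% of all Fra-1 peaks, it was 1.51% (1.28% to 1.77%), 2.34% and 0.776%. Other chromosomes did not follow gene number in this way. Chromosome 8, with 4.89 protein-coding genes per Mb, held 7.02%, 5.45% and 5.90%, so input-only peaks had the highest share. On chromosome 11, with 9.7 genes per Mb, the shares were 3.58%, 3.56% and 4.19%. At 20 to 24 fragments, chromosome 19 still held 4.12% (3.44% to 4.88%) of input-only and 1.81% (1.06% to 2.89%) of IgG-called peaks.

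Density ran from 1.49 input-only peaks per Mb on X and 1.54 on chromosome 4 to 7.10 on chromosome 19 and 7.31 on chromosome 20. Over the 23 chromosomes, input-only peaks per Mb went with RefSeq protein-coding genes per Mb at a Spearman rho of 0.51 (Pearson r 0.67), as a description. The rho was −0.17 for IgG-called and 0.75 for DDX5-overlapping peaks. Without chromosomes 17 and 19 the input-only rho was 0.36. Input-only density also went with the median input level at Fra-1 peaks of the chromosome (rho 0.71), as did that of IgG-called peaks (0.65). Chromosomes 20 and 8 had the highest median input levels, 6.0 and 6.78, and held 7.31 and 4.73 input-only peaks per Mb. All points share the same libraries, and the part of input level in the relation with gene density was not tested. As a share of each chromosome's Fra-1 peaks, input-only peaks ran from 23.4% (21.1% to 25.9%) on chromosome 4 to 40.1% (37.2% to 43.0%) on chromosome 20.

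**Figure D5:**
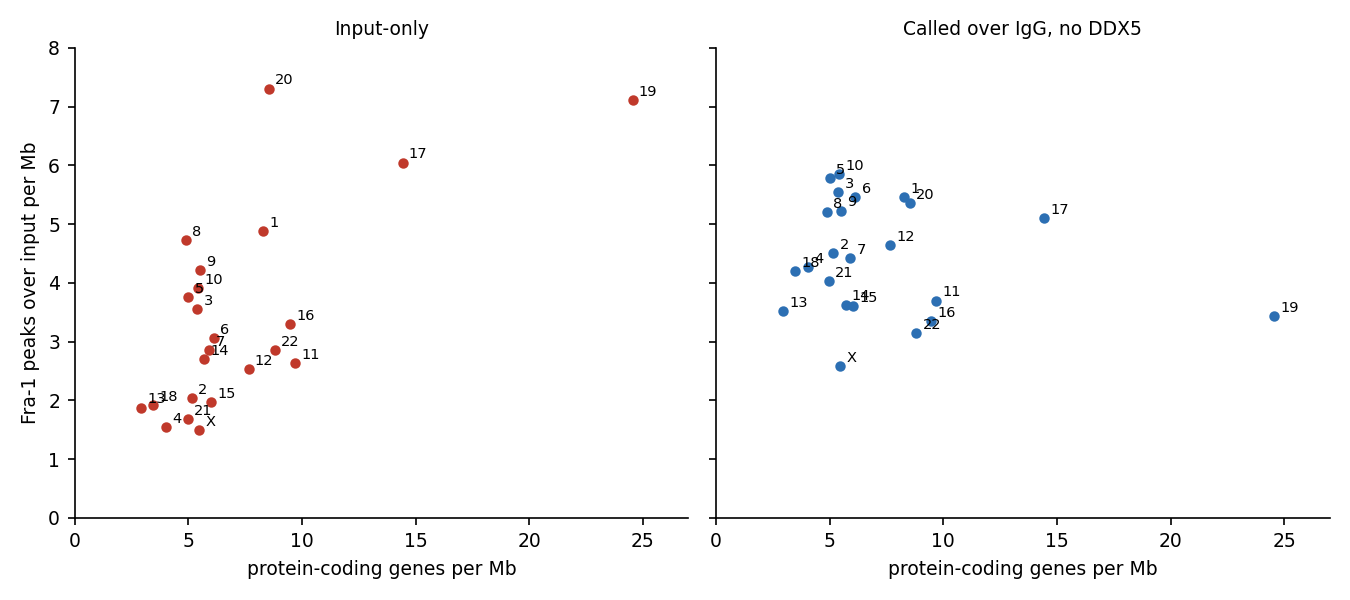
Density of Fra-1 peaks over input (vertical axis, peaks per Mb) against protein-coding genes per Mb (horizontal axis), 1 point per chromosome with its name, for input-only peaks (left) and IgG-called peaks without DDX5 (right). Chromosomes 17, 19 and 20 stand highest on the left, at 6.05 to 7.31 per Mb, while chromosome 19 has 3.43 IgG-called peaks per Mb on the right.

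The rule turns on 1 bp. The input-only peak nearest to a DDX5 peak, at chr9:116361301-116361893 (4.45-fold), was 1 bp short of it, and chr2:74734499-74734698 (3.23-fold) was 2 bp short. On the other side, the Fra-1 peaks at chr19:48111653-48111940 (5.80-fold) and chr7:72971567-72972117 (3.90-fold) were left out for an overlap of 1 bp. Against Fra-1 over IgG the border was emptier. There the nearest input-only peak, at chr5:72607423-72607696 (4.41-fold), stood 57 bp away, and the smallest overlaps were 8 bp at chr8:117242605-117242813 (2.77-fold) and 81 bp at chr6:143144395-143144624 (2.96-fold).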

How the data were processed

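Each deposited list sets 1 ChIP library against 1 control, with no pooling. The submitters' processing notes name CASAVA 1.8, Bowtie 0.12.9, HOMER and hg19; the peak caller is not given in the sources used here. Per the file headers, the deposited signal is the pileup at the summit, and the authors' fold enrichment is a ratio, equal to (pileup + 1)/(control level + 1), from which control levels were computed; they cannot fall below the lowest level of the list (3.02 over input). Deposited −log10 p and q-values stand in 2 columns with damaged headers, and the first matches a Poisson upper tail (median difference 6.22e-06 over input). Fold and pileup are the authors' values and serve to describe peaks within a list. Read depth is unknown.

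Overlap means at least 1 bp; distances are gaps between peak edges. Shares have 95% exact (Clopper-Pearson) intervals that cover counting error alone, because peaks close together depend on each other; no p-value is given. Gene numbers per chromosome are protein-coding genes of RefSeq (GRCh38.p14), and chromosome length is the last peak end. Peaks were named by highest fold (10), −log10 q, width and pileup (5 each), smallest gap or overlap, and fullest groups. Members and lists were chosen with earlier results of these data known. Promoter, motif and gene analyses planned for an hg19 annotation were not run. Overlap code was tested on simulated data. Tools were Python 3.11.15, scipy 1.17.1, numpy 2.4.6, matplotlib 3.10.9 and pandas 2.3.3.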

Additional observations from a re-analysis of the deposited data

How the results depend on the processing

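Of 48 alternative values for the input-only peaks, 23 lay inside the main value's interval (for the count, within 1.5 times) and 25 moved. Counting a partner only when at least 50% of either peak is covered gave 33.7% input-only and 29.3% near a DDX5 peak. Centres within 500 bp gave 30.4% input-only, 27.5% near an IgG-called peak, 24.1% near DDX5 and 46.3% without a Fra-1 neighbour. Fra-1 peaks at or above the list's median −log10 q left 782 input-only peaks, 5.13% of those, with a median fold of 6.22, width of 288 bp and input level of 3.87; 99.9% reached 4-fold, 35.8% lay near an IgG-called and 23.9% near a DDX5 peak, 41.2% had no neighbour and 3.07% lay on chromosome 19. The input level of 3.87 lay at the lower end of the main interval, 3.87 to 4.01, and moved only in its last digit. Counting DDX5 over IgG as a partner could change nothing, since no input-only peak overlaps one, and is not counted among the 48. Within 1 kb, 10.9% and 13.2% lay near IgG-called and DDX5 peaks, and within 100 kb 69.6% and 62.9%; without a neighbour within 5 kb and 50 kb were 57.1% and 20.8%. Distances and thresholds move these values by construction. Chosen after the data were seen, the 8-fold limit gave 0.345%, and a pileup of 20 to 29 gave 33.0% near IgG-called peaks and 3.70% on chromosome 19. Leaving out the 50 peaks at an input level of 20 or more moved none. For the other moves the cause was not tested. No paired analysis was possible because each antibody has 1 library. The promoter and AP-1 motif shares were not run.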
